A study of Mus musculus with 9 samples.

Results

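The BCL-2 family decides whether a cell keeps its mitochondria intact, and 10 of its genes were read here in murine Tc17 cells, which are CD8+ T cells primed to make IL-17. The genes were taken by symbol from the deposited table of normalized read counts: Bcl2, Bcl2l1 and Mcl1, Bax and Bak1, and Bid, Bad, Bcl2l11, Bbc3 and Pmaip1. All 10 were found among the 41388 genes of the table, and all 10 were among the 11599 genes tested, those whose normalized counts averaged 10 or more over the 9 libraries. The cells were naive CD8+ T cells from lymph nodes and spleen of C57BL/6 mice, primed with plate-bound anti-CD3 (5 µg/ml) and anti-CD28 (0.5 µg/ml) in the presence of IL-2 (50 U/ml), TGF-β (0.5 ng/ml), IL-6 (30 ng/ml) and anti-IFN-γ (5 µg/ml). For 2 days all cultures held 0.2% DMSO as solvent, with nothing further in Ctrl, with 20 µM dimethyl fumarate in DMF, and with 20 µM DMF and 50 µM reduced glutathione in DMF + GSH. Each group had 3 libraries. DMF is an electrophilic fumarate ester that lowers the free thiol glutathione, and DMF + GSH asks which of its effects remain once glutathione is supplied. DMF and glutathione were in the same cultures, so glutathione replaced in the cells and DMF taken up by added glutathione cannot be told apart. The labels name no genetic change in any group and do not say whether the 3 libraries of a group came from separate mice or cultures. The study describes the replicates of its experiments in general as independent biological ones, and p-values here measure the spread between these libraries.

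Proteins of this family fall into 3 classes. The pro-survival proteins BCL-2 (Bcl2), BCL-XL (Bcl2l1) and MCL-1 (Mcl1) hold the effectors BAX (Bax) and BAK (Bak1) in check, and the effectors, once active, open the outer mitochondrial membrane and release cytochrome c. The BH3-only proteins BID, BAD, BIM (Bcl2l11), PUMA (Bbc3) and NOXA (Pmaip1) sense stress, loss of cytokine or DNA damage and engage the other classes. In T cells, BCL-XL rises after activation with CD28 costimulation, BCL-2 and MCL-1 serve survival on cytokines of the common gamma chain, and BIM drives the death of T cells at the end of a response. Much of this control acts on the proteins, and reads counted per gene do not tell apart the long and short isoforms of Bcl2l1, Mcl1 or Bcl2l11.

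The libraries held between 7671772 reads in replicate 3 of Ctrl and 14511926 reads in replicate 2 of DMF + GSH, assigned to genes. The T cell markers Cd3e, Cd8a and Cd8b1 summed to between 16182 and 21311 normalized counts per library. The sum of 12 markers of other cells (CD4+ T, B, myeloid, NK and erythroid cells) lay between 18.6 and 233 in Ctrl, between 8.46 and 26.1 in DMF and between 20.4 and 37.4 in DMF + GSH, and Hbb-bs and Hba-a1 were at 0 in every library. Replicate 3 of Ctrl held the myeloid markers Lyz2 (119), Csf1r (58.3) and Adgre1 (45.5), and counts of genes that passed are therefore given with and without it. The summed markers of type 17 cells (Il17a, Il17f and Ccr6) ranged from 759 to 1946 in DMF and from 2915 to 5001 in the other groups, without overlap, and what part this had in the values below was not tested. In RNA from whole cultures, fewer cells of a kind and less RNA per cell cannot be told apart.

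Per length of transcript, Mcl1 was the highest of the 10 genes in every group and Bax the next. In Ctrl, Mcl1 stood at 140.0 ± 9.38 RPKM (reads per kilobase of merged exons, scaled to library depth; mean ± SD, n = 3), and Bax at 60.0 ± 7.58. The second effector gene, Bak1, followed at 25.5 ± 2.31 RPKM, then Bcl2 at 20.3 ± 0.202 and Pmaip1 at 17.3 ± 1.43. These 5 genes kept separate ranges in Ctrl, and the order of their means was the same in each group, although Bcl2 overlapped with Bak1 and with Pmaip1 in DMF and with Pmaip1 in DMF + GSH. Below them came Bcl2l11 (12.9 ± 2.16 RPKM), Bcl2l1 (9.91 ± 1.78), Bbc3 (7.96 ± 0.945), Bad (6.12 ± 0.578) and Bid (5.12 ± 0.915). Of these, Bcl2l11 and Bcl2l1 overlapped, as did Bcl2l1 and Bbc3, and Bad and Bid. In DMF the lower part of the order moved: Bcl2l1 took rank 6 at 15.2 ± 1.91 RPKM, with Bcl2l11 below it at 9.32 ± 3.31 and no overlap between them, and Bid took rank 8 at 8.78 ± 1.52. In DMF + GSH the order of all 10 genes was that of Ctrl. Summed by class, the RPKM of Bax and Bak1 together were 80.0, 82.0 and 94.7 in the libraries of Ctrl, 109, 106 and 108 in DMF, and 72.6, 80.1 and 95.4 in DMF + GSH. The sum of the 3 pro-survival genes was 177, 173 and 162 in Ctrl, 163, 149 and 153 in DMF, and 178, 175 and 157 in DMF + GSH. That of the 5 BH3-only genes averaged 49.5 ± 3.40 in Ctrl, 47.8 ± 5.71 in DMF and 50.7 ± 4.71 in DMF + GSH. The first sum is mostly Bax, the second mostly Mcl1, and in the third Pmaip1 and Bcl2l11 are the highest in Ctrl. The sums rest on annotated exon lengths and are given as levels, with no test.

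**Figure D1:**
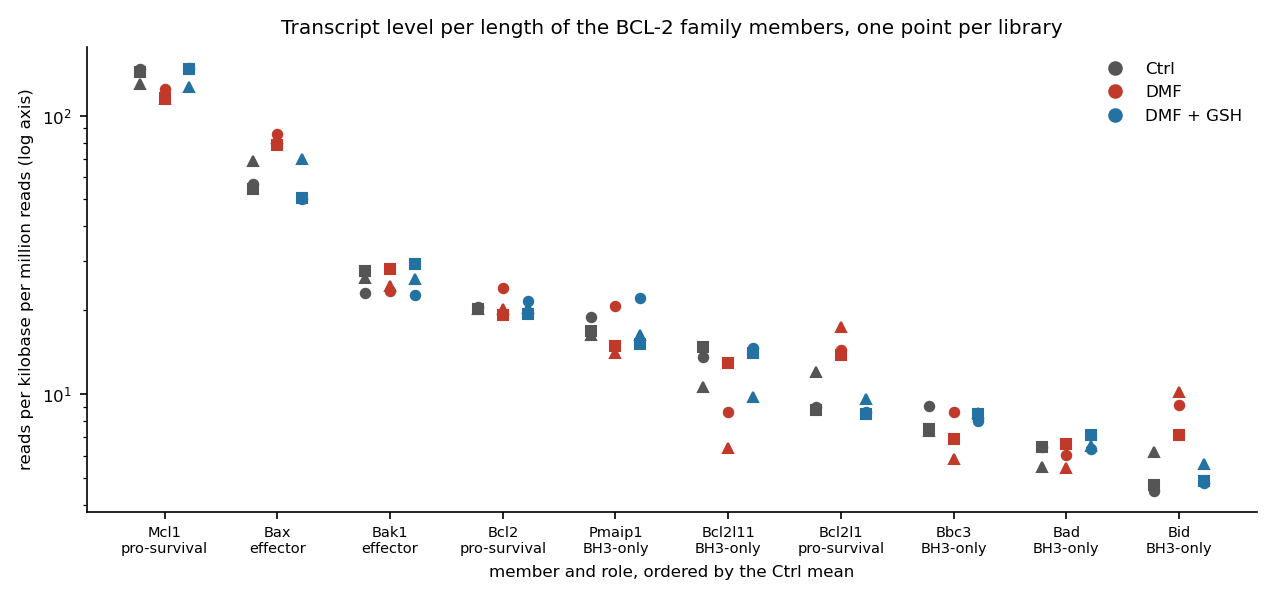
Transcript level of each BCL-2 family gene in RPKM on a log axis, one point per library, coloured by group and shaped by replicate number (circle 1, square 2, triangle 3). Mcl1 and Bax are above the other 8 genes in every library, and Bcl2l1 and Bid lie higher in DMF than in the other groups.

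The comparison of DMF with Ctrl asks which survival and death genes respond to the drug. In DMF the pro-survival gene Bcl2l1, the effector gene Bax and the BH3-only gene Bid were higher, by 1.57-, 1.40- and 1.74-fold, and the pro-survival gene Mcl1 was 1.16-fold lower. So 4 of the 10 genes passed the threshold of adjusted p under 0.05 (limma on log2 values with a pseudocount of 1 and a batch term, Benjamini-Hochberg over all genes tested), 3 higher and 1 lower. Among all 11599 genes, 28% passed, 14.6% higher and 13.3% lower, so 4 of 10 is not far from the share of the whole table. In this fit none of the 10 passed the stricter rule of a log2FC of 0.75 or more in size at p adj under 0.01, which 2.89% of all genes did. Bid, at a log2FC of 0.80, missed it narrowly in limma (p adj = 0.01003), and its p adj was 0.00929 in edgeR and 3.01e-04 in DESeq2. The median log2FC of the 10 genes was 0.01, the same as that of all genes. In 4 of the 10 genes the DMF and Ctrl libraries did not overlap, against 41.3% of all genes.

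Bid showed the largest change. BID is cut by caspase-8 below death receptors, and its cleaved form carries that signal to the mitochondria. Its normalized counts were 173, 179 and 239 in the Ctrl libraries 1, 2 and 3, 354, 275 and 403 in DMF, and 183, 186 and 215 in DMF + GSH. Every DMF library lay above every library of the other groups. The log2FC of DMF against Ctrl was 0.80 ± 0.17 (SE, n = 3 per group, p adj = 0.01003), and within the pairs of libraries that share a number it was 1.03 in preparation batch 1 (replicate 1) and 0.61 and 0.75 in batch 2 (replicates 2 and 3). Bid (ENSMUSG00000004446) lies on the minus strand at chr6:120891930-120916853 (GRCm38, as all positions here), and its exons overlap those of Bcl2l13 on the other strand. The library kit does not mark strand, so reads from that overlap cannot be assigned with certainty. Bcl2l13 itself had a log2FC of 0.08 (p adj = 0.381).

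Bcl2l1 encodes BCL-XL, and its counts were 445, 434 and 599 in Ctrl, 724, 689 and 893 in DMF, and 422, 418 and 478 in DMF + GSH. The lowest DMF library was above the highest of the other groups, although replicate 3 was the highest library within each group. The log2FC was 0.65 ± 0.13 (p adj = 0.00993), and 0.70, 0.67 and 0.58 within the 3 pairs. The gene (ENSMUSG00000007659) lies on the minus strand at chr2:152780668-152831728, and no other annotated gene overlaps it.

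Bax, whose protein forms pores in the outer mitochondrial membrane, was counted at 971, 923 and 1180.3 in Ctrl, at 1485, 1335 and 1472 in DMF, and at 845, 862 and 1189 in DMF + GSH. Again all 3 DMF libraries were above the other 6. The log2FC was 0.49 ± 0.13 (p adj = 0.0252), and 0.61, 0.53 and 0.32 within the pairs. Bax (ENSMUSG00000003873) lies at chr7:45461697-45466898 on the minus strand and shares exons with the gene model Gm45808 on the same strand.

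Mcl1 moved the other way and by less. MCL-1 is a short-lived protein that has to be made continually. The counts were 5432, 5287 and 4823 in Ctrl, 4683, 4295 and 4397 in DMF, and 5431, 5410.1 and 4708 in DMF + GSH. The 3 DMF libraries were the lowest of the 9, with the highest of them close to replicate 3 of the other groups. The log2FC was -0.22 ± 0.07 (p adj = 0.0458), and -0.21, -0.30 and -0.13 within the pairs. Its call was close to the threshold and was lost without the batch term (p adj = 0.0725), without the minimum on the mean (0.100) and with the 6 libraries of these groups fitted alone (0.0593). It was also lost in 6 of the 9 fits that left out single libraries, with p adj up to 0.162, but in none of the 9 such fits with the replicate block. Mcl1 (ENSMUSG00000038612) lies at chr3:95658788-95663176 on the plus strand.

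Bcl2l11 encodes BIM, the BH3-only protein that ends the life of T cells deprived of cytokine. It was counted at 1173, 1275 and 924 in Ctrl, at 761, 1125 and 576 in DMF, and at 1261, 1216 and 846 in DMF + GSH. DMF was lower in each pair, by 0.62, 0.18 and 0.68 on the log2 scale, but the groups overlapped, with replicate 3 the lowest library of each group. The log2FC of -0.50 ± 0.23 did not pass with the batch term (p adj = 0.138), and its 95% interval ran from -1.02 to 0.03. Leaving out single libraries moved it from -0.79 without replicate 2 of DMF, the one such fit in which it passed (p adj = 0.00877), to -0.27 without replicate 3 of DMF (p adj = 0.447). Once replicate number entered the limma fit as a block, the same log2FC had an SE of 0.09 and a p adj of 1.83e-04. The block raised the count of genes that passed to 5 of 10 (3 higher, 2 lower), against 45% of all genes, and under it Bid also passed the stricter rule, as did 6.8% of all genes. Bcl2l11 (ENSMUSG00000027381) lies at chr2:128126038-128162547 on the plus strand.

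The other 5 genes did not pass with either fit. Bcl2, the founding pro-survival gene, was counted at 2031, 1984 and 2021 in Ctrl and at 2425, 1902 and 2078 in DMF, where replicates 1 and 3 lay above the Ctrl libraries and replicate 2 below them. Its log2FC was 0.08, with a 95% interval from -0.09 to 0.24. Bak1, the other effector gene, had counts from 599 to 713 in Ctrl and from 618 to 732 in DMF, with a log2FC of 0.01 (-0.17 to 0.19). For Bad, whose protein is held inactive by phosphorylation, the Ctrl libraries ranged from 152 to 179 and those of DMF from 155 to 184 (log2FC 0.00, interval -0.27 to 0.27). The p53 targets Bbc3 and Pmaip1 had log2FC values of -0.15 (-0.44 to 0.14) and -0.06 (-0.26 to 0.14). Bbc3 was counted at 208, 171 and 171 in Ctrl and at 201, 158 and 138 in DMF, lower in each pair. Pmaip1 was counted at 559, 493 and 483 in Ctrl and at 623, 440.0 and 429 in DMF, higher in the first pair and lower in the other two. The intervals of Bcl2 and Bak1 reached no further than 0.24 in either direction, so that changes of the size seen for Bcl2l1, Bax or Bid lie outside them. Bcl2 (ENSMUSG00000057329, chr1:106538178-106714274, minus strand) shares exonic bases with an antisense gene, Bak1 (ENSMUSG00000057789, chr17:27019810-27029009, minus strand) with Ggnbp1 and Bad (ENSMUSG00000024959, chr19:6941861-6951899, plus strand) with Gpr137, each on the other strand, where reads cannot be told apart. Bbc3 (ENSMUSG00000002083, chr7:16308393-16318205, plus strand) overlaps no other annotated gene, nor does Pmaip1 (ENSMUSG00000024521).

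**Figure D2:**
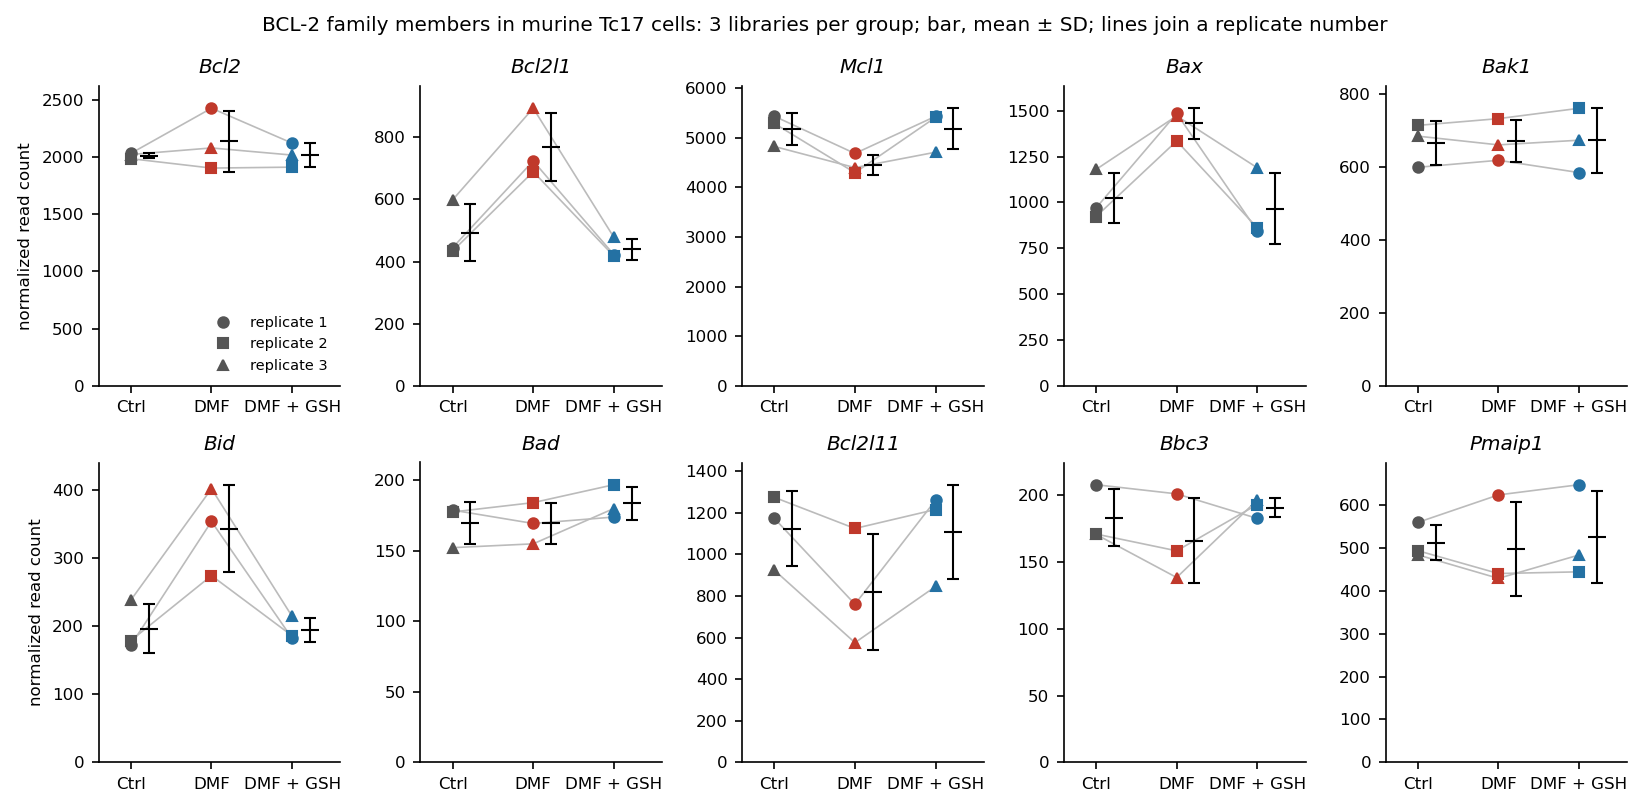
Normalized read counts of the 10 BCL-2 family genes in each library (symbols give the replicate number, grey lines join libraries of one number, black bars give mean ± SD, n = 3). In Bcl2l1, Bax and Bid all 3 DMF libraries are above the other 6, in Mcl1 all 3 are below them, and in Bcl2l11 each line dips at DMF while the groups overlap.

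Leaving out single libraries changed how many genes passed but not the direction of any that did. Without replicate 3 of Ctrl, the library with myeloid markers, the same 4 genes passed, beside 32.7% of all genes, and the log2FC was 0.79 for Bcl2l1, 0.94 for Bid, 0.59 for Bax and -0.25 for Mcl1. Without replicate 1 of Ctrl, replicate 1 of DMF or replicate 3 of DMF, 0 of the 10 genes passed with the batch term, and the genes that passed in the whole table fell to 628, 110 and 953 of 11599. Without replicate 2 of Ctrl 2 of the 10 passed, beside 10% of all genes, and without replicate 1 of DMF + GSH 3, beside 23.6%. Without replicate 2 of DMF the count was again 4, with Bcl2l11 in and Mcl1 out, beside 31.4% of all genes. In the fit with the replicate block, 5 of 10 genes passed whichever library was left out, beside 35.4% to 47.1% of all genes.

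The sequences just upstream of the 5 genes that moved with DMF in either fit are shown so that the 3 genes that were higher can be compared with the 2 that were lower. They are the bases before the RefSeq start lying farthest upstream (build GRCm38.p6), at most 250 long, cut where an annotated exon of the gene begins. They were searched on both strands for the FOXO core TGTTTAC, the STAT element TTCNNNGAA, the antioxidant response core TGACNNNGC, the E-box CACGTG and the p53 decamer, and matches are in capitals.
Bcl2l1, chr2:152831729-152831978, minus strand: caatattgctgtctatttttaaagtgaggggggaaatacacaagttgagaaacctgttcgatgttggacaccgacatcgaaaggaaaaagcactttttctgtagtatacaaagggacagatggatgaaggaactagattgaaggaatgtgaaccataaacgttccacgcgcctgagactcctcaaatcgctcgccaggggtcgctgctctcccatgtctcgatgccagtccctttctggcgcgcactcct
Bid, chr6:120916854-120917074, minus strand: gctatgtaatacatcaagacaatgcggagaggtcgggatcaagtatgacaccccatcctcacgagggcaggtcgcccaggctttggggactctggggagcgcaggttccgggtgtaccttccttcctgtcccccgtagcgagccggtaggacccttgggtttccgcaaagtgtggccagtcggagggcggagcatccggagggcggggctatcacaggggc
Bax, chr7:45466899-45467148, minus strand: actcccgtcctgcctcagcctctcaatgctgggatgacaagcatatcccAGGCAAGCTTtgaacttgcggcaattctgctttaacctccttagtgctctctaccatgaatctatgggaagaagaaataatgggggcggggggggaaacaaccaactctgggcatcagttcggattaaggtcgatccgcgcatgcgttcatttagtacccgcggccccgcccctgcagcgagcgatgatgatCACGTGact
Mcl1, chr3:95658471-95658720, plus strand: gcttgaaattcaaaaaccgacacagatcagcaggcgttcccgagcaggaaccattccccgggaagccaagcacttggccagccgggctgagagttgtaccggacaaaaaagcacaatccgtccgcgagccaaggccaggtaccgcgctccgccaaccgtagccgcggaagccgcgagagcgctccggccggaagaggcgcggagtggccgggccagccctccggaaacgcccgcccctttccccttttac
Bcl2l11, chr2:128125788-128126037, plus strand: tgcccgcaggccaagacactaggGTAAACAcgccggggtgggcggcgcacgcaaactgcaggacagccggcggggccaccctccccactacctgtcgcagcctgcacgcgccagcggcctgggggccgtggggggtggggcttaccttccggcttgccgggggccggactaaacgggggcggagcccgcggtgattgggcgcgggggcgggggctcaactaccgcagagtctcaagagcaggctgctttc
Bax held an E-box and a p53 decamer, and Bcl2l11 held a FOXO core read on the opposite strand. None of these letters was found in the windows of Bcl2l1, Bid and Mcl1. Among 27025 mouse genes with such a window of 250 bases, 6.04% held the E-box, 7.16% the p53 decamer, 3.06% the FOXO core, 7.14% the STAT element and 10.1% the antioxidant response core. A match here is a run of letters and not a bound site, and a window without one says nothing of elements that lie elsewhere.

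The comparison of DMF + GSH with DMF asks which of these changes are undone when the thiol is supplied. Bcl2l1, Bid and Bax, which had been higher with DMF, were 1.74-, 1.75- and 1.50-fold lower with glutathione than without. These were the 3 of 10 genes that passed, all of them lower, against 22.3% of all genes (9.99% higher and 12.4% lower). In limma with the batch term none passed the stricter rule, which 0.543% of all genes met. Bcl2l1 and Bid, each at a log2FC of -0.80 in limma, had p adj values of 0.0102 and 0.0132 in edgeR. In DESeq2 these were 8.17e-06 and 3.08e-04. In 4 of 10 genes the libraries did not overlap, against 38.3% of all genes. This comparison uses the same DMF libraries as the one with Ctrl, so that a DMF library that stands apart moves both, and no correspondence between them was tested.

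The log2FC was -0.80 ± 0.13 for Bcl2l1 (p adj = 0.0107), -0.80 ± 0.17 for Bid (p adj = 0.0140) and -0.58 ± 0.13 for Bax (p adj = 0.0174). All 3 pairs agreed in direction for each, with differences from -0.90 to -0.72 for Bcl2l1, from -0.95 to -0.56 for Bid and from -0.81 to -0.31 for Bax. Mcl1 was higher by 0.22 ± 0.07 without overlap of the libraries, at p adj = 0.0535 with the batch term in limma, 0.0484 in edgeR and 0.0376 in DESeq2, and at p adj = 0.00318 with the replicate block in limma. Bcl2l11 was higher in each pair, by 0.73, 0.11 and 0.55, with a log2FC of 0.46 ± 0.23 (p adj = 0.173, and 3.88e-04 with the block). Without replicate 2 of DMF that log2FC was 0.76 (p adj = 0.0123), and without replicate 3 of DMF it was 0.24 (p adj = 0.526). With the replicate block, therefore, 5 of 10 genes passed, 2 higher and 3 lower, against 41.5% of all genes, and Bcl2l1 and Bid met the stricter rule, as did 5.69% of all genes. Bcl2, Bak1, Bad, Bbc3 and Pmaip1 had log2FC values from -0.08 for Bcl2 to 0.22 for Bbc3, and none passed in either fit. Leaving out replicate 1 or 3 of DMF, or replicate 1 or 2 of DMF + GSH, left 0 of the 10 genes past the threshold with the batch term, and 15, 107, 10 and 143 genes in the whole table. Without replicate 3 of Ctrl, a library outside this comparison that enters the estimate of the spread, 4 of 10 genes passed, Mcl1 being added, beside 25.9% of all genes.

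DMF + GSH set against Ctrl asks what is left of the drug effect. None of the 10 genes passed, and none had an unadjusted p under 0.05 (limma). The log2FC values ran from -0.15 for Bcl2l1 to 0.12 for Bad. Over all genes tested 0% passed, 222 had an unadjusted p under 0.05, and edgeR and DESeq2 on the recovered reads gave 0 as well, with 213 and 100 genes at an unadjusted p under 0.05. With the replicate block, 0.0345% of all genes passed in limma (4 genes, and 14 in edgeR) and none of the 10, and the libraries overlapped in all 10 genes, whereas 4.47% of all genes did not overlap. Without replicate 3 of Ctrl, 0 of the 10 passed as well. For Bcl2, Mcl1 and Bak1 the 95% intervals stayed within 0.19 of zero in either direction. For Bid the interval ran from -0.38 to 0.37 with the batch term and from -0.23 to 0.22 with the replicate block, and for Bcl2l11 from -0.55 to 0.49 and from -0.22 to 0.16.

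**Figure D3:**
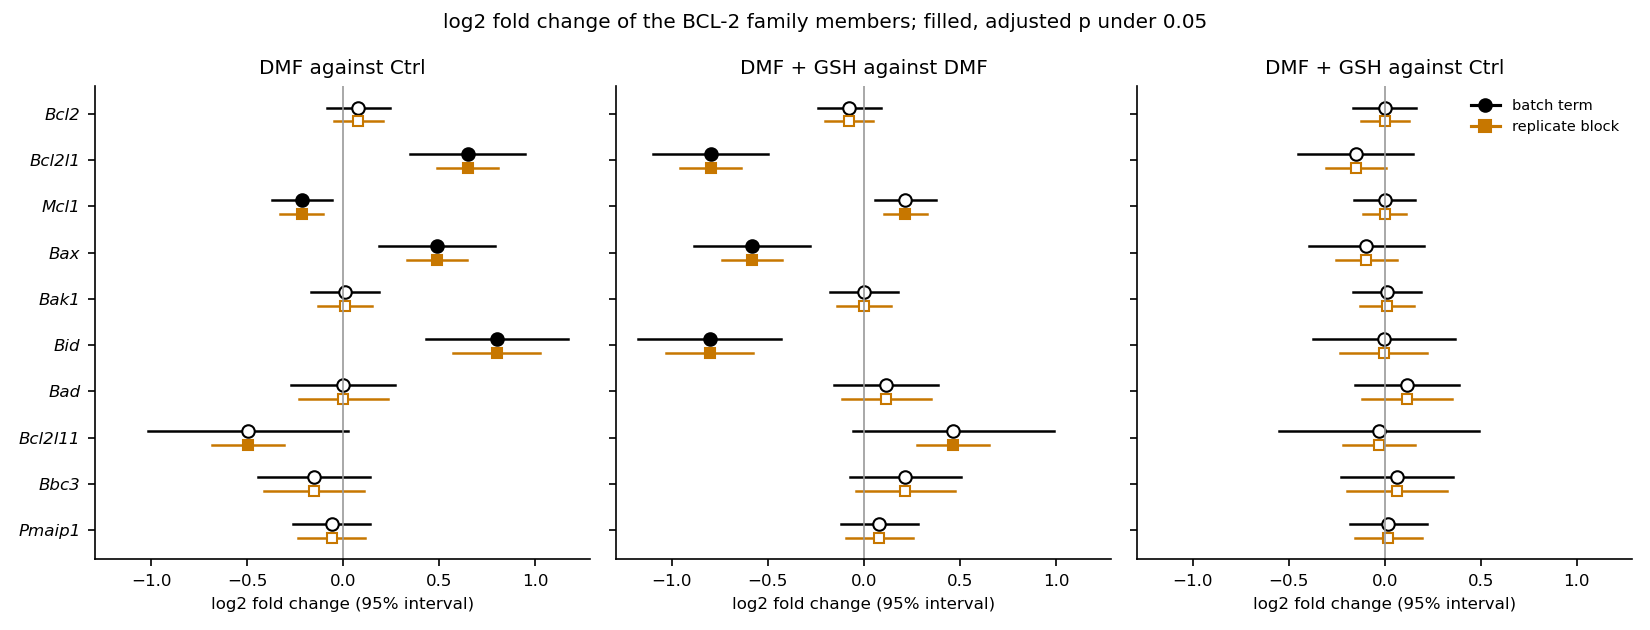
log2 fold change with its 95% interval for the 10 genes in the 3 comparisons, from the fit with the batch term (black circles) and with the replicate block (orange squares), filled where adjusted p was under 0.05. Bcl2l1, Bax and Bid lie to the right in DMF against Ctrl and to the left in DMF + GSH against DMF, Mcl1 and Bcl2l11 do the opposite, and all intervals of the black circles cross 0 in DMF + GSH against Ctrl.

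Of 15 further genes of the BCL-2 family, 9 passed the minimum and 2 of those were lower with DMF, with none higher, beside 28% of all genes called in either direction. Bnip3l, whose protein NIX marks mitochondria for removal by autophagy, was counted at 1107, 1240.1 and 900.1 in Ctrl, at 548, 691 and 502 in DMF, and at 1194, 1038 and 879 in DMF + GSH. Its log2FC was -0.90 ± 0.15 (p adj = 0.00650) with DMF against Ctrl and 0.84 ± 0.15 (p adj = 0.0116) with DMF + GSH against DMF. Bmf, a BH3-only gene, was counted at 126, 136 and 95.3 in Ctrl, at 60.3, 89.9 and 41.6 in DMF, and at 132, 147 and 81.7 in DMF + GSH. It was lower with DMF by a log2FC of -0.94 ± 0.30 (p adj = 0.0417 in limma, 0.0517 in edgeR and 0.0189 in DESeq2). Its log2FC with glutathione was 0.93 ± 0.30 (p adj = 0.0503 in limma, 0.0532 in edgeR, 0.0198 in DESeq2, and 8.32e-05 with the replicate block in limma). Bnip3, a relative of Bnip3l, had a log2FC of -0.49 with DMF (p adj = 0.0700 in limma, 0.0577 in edgeR, 0.0333 in DESeq2, and 0.00409 with the block in limma). The other 6 tested genes did not pass with the batch term in limma: Bcl2l2 (-0.17), Bik (-0.26), Bcl2l12 (-0.08), Bcl2l13 (0.08), Bcl2a1b (0.33) and Bcl2a1d (0.30). The 2 last are near-identical copies, and reads could be split between them. Bcl2a1a, Bcl2l10, Bok, Hrk, Bcl2l14 and Bcl2l15 did not exceed 7.41 normalized counts in any library and were not tested. The median log2FC of the 9 tested genes was -0.17.

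Downstream of the mitochondria, where released cytochrome c assembles APAF1 and caspase-9 into the apoptosome, 5 of 15 genes passed in DMF against Ctrl, 2 higher and 3 lower, near the 28% of all genes. Htra2, a protease released with cytochrome c, rose from 382 ± 15.7 to 528 ± 60.9 (SD, n = 3, log2FC 0.46, p adj = 0.0121), and the channel gene Vdac2 rose by 0.39. Apaf1 fell from 1238 ± 65.6 to 952 ± 69.0 (log2FC -0.38, p adj = 0.00702), Casp6 fell by 0.46 and Casp2 by 0.27. The median log2FC of the 15 genes was 0.11. Among 10 genes of caspase inhibitors and death receptor adaptors, Xiap and Birc5 fell, by 0.35 and 0.28, and none rose with the batch term, with a median of -0.14. With the replicate block 2 of these 10 were higher, Fadd (log2FC 0.33, p adj = 0.0340) and Ripk1 (0.19, p adj = 0.0263), and 4 were lower, against 45% of all genes. In DMF + GSH against DMF, which uses the same DMF libraries, 5 of the 15 and 2 of the 10 genes passed, against 22.3% of all genes. Htra2 and Vdac2 were lower there by log2FC values of -0.44 and -0.38, and Apaf1, Casp6, Casp2, Xiap and Birc5 were higher by 0.24 to 0.43. No correspondence between the comparisons was tested.

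p53, the tumour suppressor that drives Bax, Bbc3 and Pmaip1 among many genes, gave no single direction among 22 tested genes of a list of 23, made of Trp53 and its targets. In DMF against Ctrl, 5 rose and 4 fell, and with the replicate block 9 were higher and 8 lower, against 45% of all genes. Sesn2 and Perp rose by 0.94 each, Cdkn1a, the cell cycle inhibitor p21, by 0.90 and the death receptor gene Tnfrsf10b by 0.75. Cdkn1a was counted at 247, 238 and 452 in Ctrl, at 642, 436 and 624 in DMF, and at 223, 212 and 410 in DMF + GSH. Replicate 3 of Ctrl lay above replicate 2 of DMF, and replicate 3 was the highest library of DMF + GSH as well. The p adj of Cdkn1a was 0.0470 in limma, 0.0960 in DESeq2 and 1.49e-05 with the replicate block in limma. Sesn1 fell by 0.76, Fas, the death receptor of activated T cells, by 0.71, Trp53inp1 by 0.68 and Apaf1 by 0.38. Fas was counted at 368, 303 and 277 in Ctrl, at 175, 250.0 and 161 in DMF, and at 301, 294 and 200.3 in DMF + GSH. The median log2FC of the list was 0.08, and 9 of 22 called stands beside the 28% of the whole table. With glutathione 2 genes of the list were higher and 4 lower than with DMF alone, against 22.3% of all genes.

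The factors known to act on BH3-only and pro-survival genes included the largest change of all the lists. Of 16 genes, 6 rose and 3 fell with DMF, beside 14.6% of all genes higher and 13.3% lower, with a median log2FC of 0.14. Atf3, a stress-induced transcription factor, was counted at 22.9, 13.9 and 19.9 in Ctrl, at 132, 42.8 and 60.0 in DMF, and at 19.8, 14.1 and 28.2 in DMF + GSH, a log2FC of 1.86 ± 0.36 (p adj = 0.00794). Il2ra, the high-affinity chain of the IL-2 receptor, rose by 1.05, Myc by 0.87 and Atf4, which drives the response to amino acid and redox stress, by 0.53. Il7r, the receptor chain for the survival cytokine IL-7, was counted at 1623, 1594 and 1386 in Ctrl, at 743, 974 and 561 in DMF, and at 1540.3, 1278 and 1064 in DMF + GSH, a log2FC of -1.05 ± 0.18 (p adj = 0.00649). Runx3 fell by 0.28 and Foxo1, a factor that drives Bcl2l11 and Il7r, by 0.27. Foxo3, of the same family and list, did not pass (log2FC -0.08, p adj = 0.503 in limma), and no link from these factors to Bcl2l11 was tested. With glutathione 1 of the 16 was higher than with DMF alone, which was Il7r, and 7 were lower, beside 22.3% of all genes called. Of 15 genes of turnover and binding partners, 2 rose, Dynll1, which binds BIM and BMF, by 0.52 and the co-chaperone Bag1 by 0.47, and Fbxw7, whose protein targets MCL-1 for degradation, fell by 0.25 (p adj = 0.0423 in limma and 0.0790 in DESeq2), with a median over the 15 of 0.02.

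The counts of these lists moved with the fit and with single libraries. With the replicate block, DMF against Ctrl gave 3 of 9 genes of the other BCL-2 family, 9 of 15 around the apoptosome (5 higher, 4 lower), 11 of 16 upstream factors (8 higher, 3 lower) and 7 of 15 genes of turnover and binding partners (4 higher, 3 lower), against 45% of all genes. DMF + GSH against DMF gave 2, 10, 11 and 5 of the same lists with the block, 3 of the 10 inhibitors and adaptors and 15 of the 22 genes of the p53 list, against 41.5% of all genes. Without replicate 3 of Ctrl and with the batch term, DMF against Ctrl called 3 genes of the other BCL-2 family, 8 around the apoptosome, 4 inhibitors and adaptors, 14 of the p53 list, 8 upstream factors and 5 of turnover and binding partners, while the share of all genes called rose from 28% to 32.7%. Without it, DMF + GSH against DMF called 2, 5, 3, 9, 8 and 3 genes of the same lists in that order, beside 25.9% of all genes. Without replicate 1 of DMF, 0 genes of any list passed with the batch term in either comparison with DMF. In DMF + GSH against Ctrl no gene of any of the 6 lists passed in either fit.

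**Figure D4:**
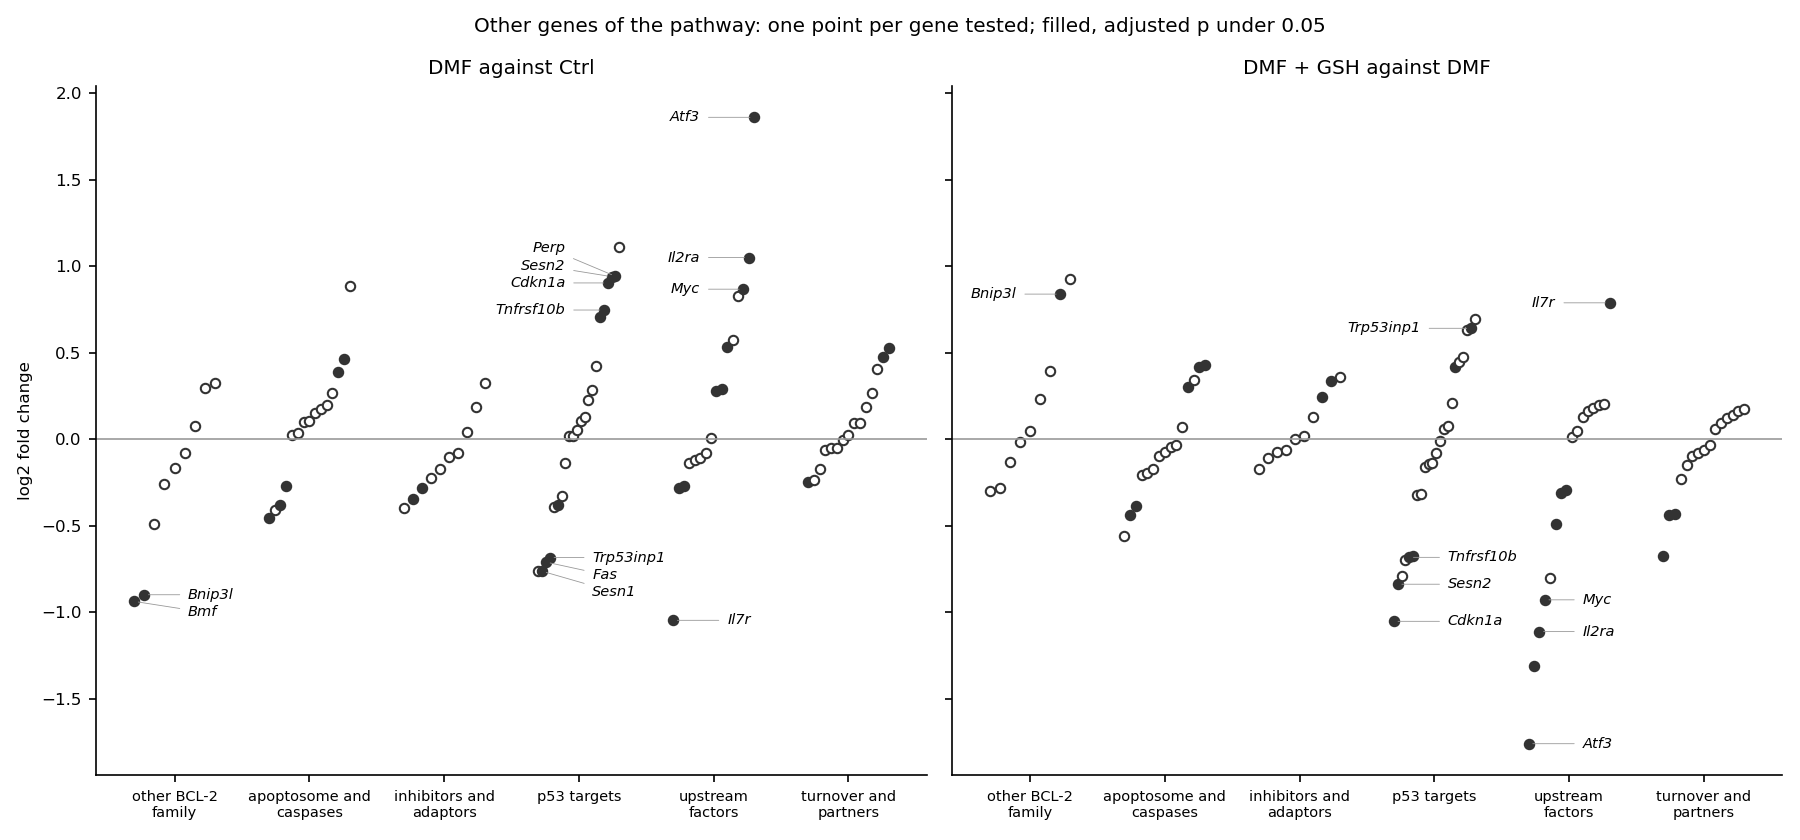
log2 fold change of each tested gene in 6 lists around the BCL-2 family, for DMF against Ctrl and for DMF + GSH against DMF, filled where adjusted p was under 0.05. Atf3 has the largest log2FC of these genes in both panels, 1.86 and -1.76, and each list with DMF has genes on either side of 0.

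Over the 9 libraries, the genes whose log2 values followed Bid most closely after the mean of each replicate number was removed were Isg20l2, Wdr12 and Nifk, each with a Pearson r of 0.998. Those closest to Bcl2l1 were Ctsz (r = 0.995), Crtap (0.995) and Ythdf1 (0.994). The 9 points share their 3 groups and replicate numbers, and r is given as a description.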

How the data were processed

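Poly(A) RNA of 9 Tc17 samples was sequenced as single 50 bp reads. Per the labels and the study's methods, the authors aligned reads with STAR (2.4.0b) to Ensembl GRCm38, checked them with FastQC, counted them per gene with featureCounts (the kit does not mark strand), and deposited normalized counts, a signal made by dividing counts by DESeq2 size factors. The same deposited tables hold the authors' own comparisons as log2 fold changes, p-values and scores, which were not used. Dividing by the step that 1 read is worth in each library gave whole reads for 100% of values (within 0.01 reads), so depth could be recovered.

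Replicate 1 of each group was preparation batch 1, and replicates 2 and 3 were batch 2. log2(value + 1) was fitted with limma (3.58.1, trend) over all 9 libraries with batch as a term, for 11599 genes with a mean of at least 10, with Benjamini-Hochberg adjustment over all of them and a threshold of 0.05. Fold changes are therefore on the log2(value + 1) scale, which understates low genes. Deviations from the group means correlated at most at -0.0621 in pairs of other numbers, values that centring each group on its own mean lowers. In all 9 same-number pairs they correlated at 0.447 to 0.578, and on these values the replicate number pairs the libraries. The fit with the number as a block is therefore printed beside the 10 genes where it changes a call, and as counts for the lists. The alternatives were edgeR (4.0.16) and DESeq2 (1.42.0) on the recovered reads, other pseudocounts, minimums and scalings, and each library left out. RPKM used recovered reads and merged exons of GENCODE vM21. This has the authors' genome build (GRCm38) but is not the Ensembl release on which they counted reads, so exon lengths and overlaps may differ. Promoter windows came from RefSeq GRCm38.p6, where 9 of the 10 genes matched. Named genes were all 10 members, of each list the called genes with at most the 4 largest log2FC per direction, every tested gene of the other BCL-2 family, and the 3 genes most correlated with each of the 2 members that changed most. The members and lists were chosen with earlier results of these data known. 1 gene of the lists is not reported here.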

Additional observations from a re-analysis of the deposited data

How the results depend on the processing

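Every gene of the 10 that passed kept its direction in each of the 30 alternatives run. Sign changes occurred only in genes that did not pass: 13 of 300 gene and setting pairs for DMF against Ctrl (3 genes), 5 of 300 for DMF + GSH against DMF (1 gene) and 38 of 300 for DMF + GSH against Ctrl (8 genes). For DMF against Ctrl, 4 of 10 genes passed, beside 28% of all genes, and between 3 and 5 under other tools, scalings, pseudocounts and minimums. Over all 11599 genes the tools and scalings called between 3076 and 5224. When single libraries were left out, between 0 and 5 of the 10 passed, beside 0.948% to 47.1% of all genes. For DMF + GSH against DMF, 3 passed, beside 22.3% of all genes, and 3 or 4 under other tools with the batch term, scalings, pseudocounts and minimums. With the replicate block 5 passed in limma, beside 41.5% of all genes, and 5 in edgeR, beside 4877 of 11599 genes. When single libraries were left out, between 0 and 6 passed, beside 0.0862% to 42% of all genes. The 6 were reached with the block and without replicate 1 of DMF + GSH, where Bbc3 was added (p adj = 0.0354), beside 32.9% of all genes. For DMF + GSH against Ctrl the count was 0 throughout. The replicate block changed no other call among the 10 genes. Over all genes it raised the calls from 3242 to 5224 for DMF against Ctrl and from 2592 to 4814 for DMF + GSH against DMF. TMM or quantile scaling moved the median log2FC of all genes by less than 0.01. With 3 libraries per group, the median standard error of a log2FC over all genes was 0.12, and it was 0.13 over the 10 genes.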
